A study of Mus musculus with 15 samples.

Results

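AMPA receptors are the ion channels that carry most fast excitatory transmission in the brain, and 9 of the genes that build them were followed in the mouse medial prefrontal cortex (mPFC). The set was defined by name: the 4 pore-forming subunits Gria1, Gria2, Gria3 and Gria4, the 3 transmembrane AMPA receptor regulatory proteins (TARPs) Cacng2, Cacng3 and Cacng8, and the 2 cornichon proteins Cnih2 and Cnih3. The members were chosen with earlier results of these data known. Counts of members beside shares of all genes are therefore description and no test of the set. All 9 were found among the 27179 gene identifiers of the count table, and all 9 passed the filter on low counts that left 16816 genes for testing. Bulk RNA sequencing had been done on 15 libraries of dissected mPFC from C57BL/6J mice that differed in ABX treatment and in whether tissue was taken before or after fear extinction. There were 3 libraries from non-ABX mice before extinction (pre non-ABX), 4 from ABX-treated mice before extinction (pre ABX), 4 from non-ABX mice after extinction (post non-ABX) and 4 from ABX-treated mice after extinction (post ABX). ABX is the labels' own word, in general use a short form for antibiotics; the sources used here name neither the agents nor their dose nor the age of the mice. All groups share the strain and the tissue, and nothing in the labels says whether 1 library is 1 animal, so the p-values reflect only how far these libraries differ from one another, which may in part be technical.

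An AMPA receptor is a tetramer of GRIA proteins, and its kinetics and calcium permeability depend on which GRIA proteins it holds. GRIA2 messenger RNA is edited so that receptors containing the edited protein pass little calcium. TARPs bind the receptor from its assembly onward, take it to the synapse through postsynaptic scaffold proteins and slow its closing, and cornichons help it leave the endoplasmic reticulum and also slow its closing. In the cortex, fear extinction is thought to involve changes at excitatory synapses, and the number and type of AMPA receptors set the strength of such synapses.

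Depth ranged from 44254906 to 57929503 counts per library, and member counts from 533 (Cacng8) to 50489 (Gria2) in single libraries, so counting error was small beside the spread between libraries. The tissue label was checked against cell type markers. In every group the 7 excitatory cortical neuron markers were all detected, with a summed level per library of 6000 to 7740 CPM (counts scaled to a common library total). In bulk tissue, fewer cells of a type and less RNA per cell cannot be told apart. The libraries differed in how counts depended on the GC content of the transcript, and this bears on every result below. The slope of log2 CPM on GC content ran from -0.41 to 0.04 log2 units per 10 GC points in pre ABX libraries, from -0.14 to 0.32 in pre non-ABX, from -0.12 to 0.12 in post ABX and from 0.05 to 0.29 in post non-ABX. Part of this difference therefore ran along the groups compared.

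Levels are given as CPM with TMM scaling, edgeR's correction for library composition, and levels of different genes are compared only per kilobase of the longest annotated transcript. Per kilobase and over 15 libraries, Gria1 had the highest mean at 96.3 ± 8.22 CPM per kb (SD), followed by Gria3 at 91.2 ± 10.8, Gria2 at 79.0 ± 10, Cnih2 at 76.6 ± 11.5 and Cacng3 at 70.7 ± 4.47. Neighbours in this order overlapped in their ranges over libraries, and of these 5 genes only Gria1 (82.6 to 110 CPM per kb) and Cacng3 (61.9 to 78.1) were fully apart. Cnih3 (36.3 ± 2.63 CPM per kb) and Gria4 (28.7 ± 4.09) came next, and their ranges overlapped each other but not that of any gene above or below. Cacng8 (13.3 ± 3.60 CPM per kb) and Cacng2 (9.07 ± 1.53) were the lowest and overlapped as well. The order depends on the length used, above all for Gria2 and Gria3. Their joined exons span 15548 and 9859 nt, against longest transcripts of 10371 and 5206 nt. The longest transcript of Gria3 in the annotation also has no coding sequence. With the joined length of all exons, Gria1 stood at 88.4 CPM per kb, Cnih2 at 75.1, Cacng3 at 70.7, Gria2 at 52.7 and Gria3 at 48.2, while Cnih3, Gria4, Cacng8 and Cacng2 kept their places at 35.2, 24.8, 10.8 and 9.07.

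The members also differed in how much they varied. The coefficient of variation of CPM over the 15 libraries was 6.32% for Cacng3, 7.23% for Cnih3 and 8.54% for Gria1. It was 11.9% for Gria3, 12.7% for Gria2, 14.2% for Gria4, 15.1% for Cnih2, 16.8% for Cacng2 and 27.0% for Cacng8. The plot of levels by group shows these spreads library by library.

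**Figure D1:**
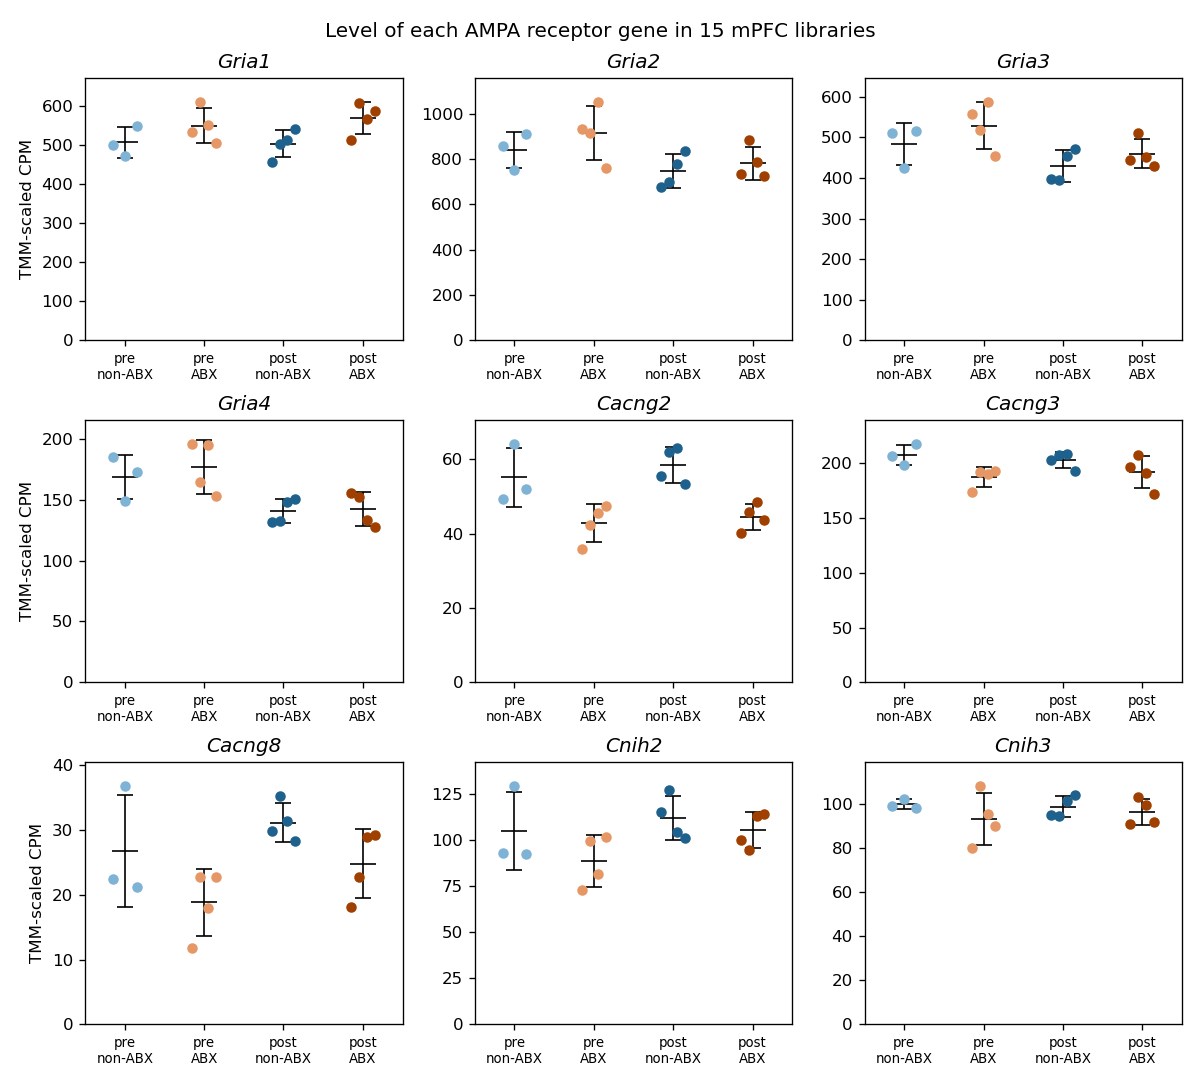
TMM-scaled CPM (vertical axes, each from 0) of the 9 genes in the 4 groups; points are libraries, and black marks give the group mean with its SD. Cacng2 lies between 36.0 and 48.5 CPM in ABX libraries and between 49.3 and 64.1 in non-ABX libraries, whereas the other 8 genes overlap between the arms.

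The question of the first comparison is whether the expression of AMPA receptor genes differs with ABX treatment. Averaged over stages, 5 members had negative and 4 positive log2 fold changes. Cacng2, which encodes stargazin (TARP gamma-2), the founding TARP, was lower in ABX libraries and in that average the only member with an adjusted p under 0.05. Before extinction its level was 49.3, 64.1 and 52.1 CPM in non-ABX libraries and 36.0, 42.4, 45.7 and 47.5 CPM in ABX libraries. After extinction it was 55.6, 62.0, 63.1 and 53.3 CPM in non-ABX libraries and 40.3, 45.9, 48.5 and 43.7 CPM in ABX libraries. At both stages each ABX library was below each non-ABX library, and over both stages the highest of 8 ABX libraries (48.5 CPM) was below the lowest of 7 non-ABX libraries (49.3 CPM). Of all genes tested, 0.279% were separated in that direction over all 15 libraries.

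Averaged over the stages, the log2 fold change of Cacng2 was -0.38 (SE 0.07, 95% interval -0.53 to -0.22), with an adjusted p of 0.0372 by edgeR's quasi-likelihood test. Cacng2 was thus 1 of 9 members called, against 0.624% of all genes called. Since the set was chosen with earlier results of these data known, these shares are no test of the set. Within a stage the call was not reached: the log2 fold change was -0.36 (SE 0.11, adjusted p 0.311) before extinction and -0.39 (SE 0.10, adjusted p 0.173) after it. Those contrasts use the same libraries as the average and are not further evidence. The change itself did not differ detectably between stages, with an interaction of -0.03 on the log2 scale (95% interval -0.34 to 0.28, adjusted p 1).

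The Cacng2 call depends on the libraries and on how GC content is handled. When each library was left out in turn, the log2 fold change stayed between -0.41 and -0.31, but the adjusted p was under the threshold in 5 of 15 fits (without pre ABX 4, pre non-ABX 1, pre non-ABX 4, post ABX 3 or post non-ABX 4). In the other 10 fits it was 0.0577 to 0.132. With the GC trend of each library removed, Cacng2 still separated the arms completely (37.4 to 47.7 against 49.5 to 62.7 CPM, where 0.387% of genes did so), and its log2 fold change was -0.36 (adjusted p 0.0101). That correction acts on a gene through its transcript GC content, which for Cacng2 is 51.2%, close to the median gene at 49.9%. Yet with group means removed, its level followed the GC slope of the library (Pearson's r = 0.72, permutation p = 0.0023, adjusted over the 9 members 0.0034; Spearman's rho = 0.70, permutation p = 0.0049, adjusted 0.0074; n = 15 libraries). Without pre non-ABX 3 and pre ABX 4, the 2 libraries whose slope lay farthest from the median once group means were removed, r was 0.55. Removing the GC trend left r at 0.62 for Cacng2, so the corrected values still followed the slope. When the slope itself was put in the fit as a covariate, an alternative added after seeing the data, the log2 fold change was -0.25 (SE 0.06, 95% interval -0.37 to -0.12) and the call was lost (adjusted p 0.156). With 1 surrogate variable in the fit, which had an absolute correlation of 0.995 with the slope, it was -0.23 (adjusted p 0.219), also not called. The direction was kept in all these fits, and the size was smaller in both fits that held the slope or its near equivalent.

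Markers of several cell types had fold changes between the arms beside that of Cacng2, in both directions, and some of their summed levels overlapped. Summed over 7 excitatory neuron markers, levels were 6000 to 6910 CPM in pre ABX against 6520 to 7650 in pre non-ABX libraries and 6550 to 7430 in post ABX against 6890 to 7740 in post non-ABX libraries, with a negative averaged log2 fold change for 6 of 7 markers (median -0.11). These excitatory sums overlapped between the arms at both stages, and Camk2a, with a mean of 4930 CPM, made up most of them. The 6 endothelial markers were all negative (median -0.40), at 105 to 144 CPM against 147 to 168 before extinction and 97.8 to 138 against 145 to 164 after it. The 4 mural cell markers were all negative too (median -0.57), at 55.9 to 75.4 CPM against 70 to 87.3 and 52.5 to 74.4 against 75.3 to 87.7. Interneuron markers overlapped (787 to 920 CPM in ABX and 810 to 858 in non-ABX libraries; 3 of 7 negative, median 0.02). The 3 oligodendrocyte precursor markers had a median of -0.20 (2 of 3 negative), at 122 to 146 CPM in ABX and 132 to 150 in non-ABX libraries. Oligodendrocyte markers had a median of -0.04 (4 of 6 negative) and microglia markers one of -0.08 (3 of 5 negative). Astrocyte markers had a median of 0.10 (2 of 6 negative), at 5110 to 7180 CPM in pre ABX against 4850 to 5600 in pre non-ABX libraries and 5120 to 5480 against 4830 to 5040 after extinction. Markers of striatal projection neurons had a median of 0.09 (1 of 6 negative), and the 3 blood markers tested one of 1.46 (0 negative) at a summed level of at most 7.28 CPM. Apart from blood, none of the markers of these types was at 0 throughout a group, and the part of cell composition in the Cacng2 result was not tested.

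The other TARPs gave smaller or less certain values. Cacng8, which encodes TARP gamma-8, a TARP best known from the hippocampus and forebrain, was at 22.4, 36.7 and 21.2 CPM in pre non-ABX and 11.8, 22.7, 18.0 and 22.8 CPM in pre ABX libraries. After extinction it was at 29.8, 35.2, 31.3 and 28.2 CPM in non-ABX and 18.2, 22.8, 28.9 and 29.2 CPM in ABX libraries. The arms overlapped at both stages, with pre non-ABX 3 well above its group and pre ABX 1 well below. The averaged log2 fold change of Cacng8 was -0.42 (SE 0.15, adjusted p 0.0958), larger in size than that of Cacng2 but with a wider error. Single libraries moved the Cacng8 value, to -0.27 (adjusted p 0.346) without pre non-ABX 3 and to -0.47 (adjusted p 0.0479, called) without pre ABX 4. It was -0.001 (95% interval -0.15 to 0.15) with the GC trend removed and -0.05 (95% interval -0.23 to 0.12) with the slope as a covariate. Cacng3, which encodes TARP gamma-3 and was the most abundant TARP here, was at 206, 198 and 217 CPM in pre non-ABX and 174, 192, 190 and 193 CPM in pre ABX libraries, which did not overlap. Before extinction 2 of 9 members, Cacng2 and Cacng3, were lower in this way, against 3.14% of all genes. After extinction Cacng3 was at 202, 207, 208 and 192 CPM in non-ABX and 197, 207, 191 and 172 CPM in ABX libraries, which overlapped, and Cacng2 alone was separated (1 of 9, against 6.36% of genes). The averaged log2 fold change of Cacng3 was -0.11 (SE 0.05, adjusted p 0.119). It was 0.00 (adjusted p 0.976) with the GC trend removed and -0.13 (adjusted p 0.328) with the slope as a covariate.

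The base composition of the TARP genes is shown here because the GC content of a transcript went with its fold change across all genes. The longest transcripts hold 51.2% GC for Cacng2, 54.6% for Cacng3 and 65.1% for Cacng8. The lines below give 90 coding bases on the sense strand of these transcripts (GENCODE annotation of GRCm38): coding bases 19 to 108 of Cacng2 and Cacng3 and the best ungapped match to the Cacng2 stretch in Cacng8, its annotated coding bases 52 to 141. Capitals mark a G or C where Cacng2 has A or T.
Cacng2: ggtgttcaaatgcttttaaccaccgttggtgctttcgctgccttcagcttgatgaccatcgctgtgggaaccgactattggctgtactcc
Cacng3: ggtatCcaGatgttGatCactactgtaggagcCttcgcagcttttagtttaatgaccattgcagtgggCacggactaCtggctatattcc
Cacng8: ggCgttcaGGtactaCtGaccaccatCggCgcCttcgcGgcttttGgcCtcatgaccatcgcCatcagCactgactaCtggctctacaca
The Cacng3 stretch matched Cacng2 at 73.3% of positions and the Cacng8 stretch at 70%. Cacng8 gained 14 such G or C positions over Cacng2 and lost 8, giving 57.8% GC in the stretch against 51.1%, and over its whole coding sequence it has 66.6% GC against 57.3% for Cacng2 and 51.7% for Cacng3. Cacng3 gained 7 and lost 11, giving 46.7% in the stretch. In the stretch and the coding sequence Cacng3 was thus below Cacng2 in GC content, whereas its longest transcript was above.

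Among the pore-forming subunits, no member was called with ABX, and all 4 averaged log2 fold changes were positive. Gria1, a subunit whose delivery to synapses accompanies potentiation, was at 500, 472 and 548 CPM in pre non-ABX and 534, 610, 550 and 506 CPM in pre ABX libraries. After extinction it was at 458, 502, 513 and 541 CPM in non-ABX and 513, 607, 568 and 588 CPM in ABX libraries. The arms overlapped at both stages, although 3 of 4 post ABX libraries were above all post non-ABX libraries. The averaged log2 fold change of Gria1 was 0.15 (SE 0.06, adjusted p 0.105), with 0.11 (adjusted p 0.178) when the GC trend was removed and 0.11 (adjusted p 0.502) with the slope as a covariate. limma-voom called Gria1 (0.16, adjusted p 0.0472). Over all genes, the alternative fits other than leaving out 1 library called 4 to 1962, against 105 in the fit reported. The averaged log2 fold change was 0.10 for Gria2 (SE 0.07, adjusted p 0.381), 0.11 for Gria3 (SE 0.07, adjusted p 0.259) and 0.04 for Gria4 (SE 0.07, adjusted p 0.699). These 3 values became -0.04, -0.01 and -0.05 with the GC trend removed, so their sign turned and each 95% interval held 0. With the slope as a covariate they were -0.05, -0.03 and -0.12. In that fit the intervals of Gria2 and Gria3 held 0, while that of Gria4 (-0.21 to -0.04) lay below 0 without a call (adjusted p 0.263).

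The cornichons were not called either. Cnih2, the main cornichon of hippocampal AMPA receptors, was at 93.1, 129 and 92.4 CPM in pre non-ABX and 72.9, 99.8, 81.5 and 102 CPM in pre ABX libraries. After extinction it was at 116, 127, 104 and 101 CPM in non-ABX and 100, 95, 113 and 114 CPM in ABX libraries, and the arms overlapped at both stages. Its averaged log2 fold change was -0.16 (SE 0.09, adjusted p 0.237) and -0.07 (adjusted p 0.682) without pre non-ABX 3, but it turned to 0.19 (SE 0.05, adjusted p 0.0364) with the GC trend removed, where the gene passed the threshold in the opposite direction together with 3.82% of all genes. With the slope as a covariate the value was 0.07 (95% interval -0.01 to 0.15, adjusted p 0.504). No direction for Cnih2 can therefore be given. It also shares 14 exonic bases with Yif1a, and the libraries do not keep strand. Cnih3 gave -0.07 (SE 0.06, adjusted p 0.437) and 0.01 with the GC trend removed, with libraries at 94.7 to 104 CPM in the non-ABX arm and 79.8 to 108 CPM in the ABX arm.

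Taking the 9 members in the 2 stages separately, edgeR called 0 of 9 before extinction (0.00595% of all genes called) and 0 of 9 after it (0.0178%). At an unadjusted p under 0.05, 3 members were negative and 0 positive before extinction (all genes: 11.4% and 4.57%), and 1 was negative and 1 positive after it (6.83% and 6.45%). DESeq2 and limma-voom each called 0 members before extinction and 1, Cacng2, after it. Over all genes, the alternative fits other than leaving out 1 library called 1 to 16 before extinction and 3 to 420 after it. Averaged over stages, 3 members were negative and 1 positive at that level, against 17.8% and 12.8% of all genes. The median averaged log2 fold change was -0.07 over the members and 0.01 over all genes.

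**Figure D2:**
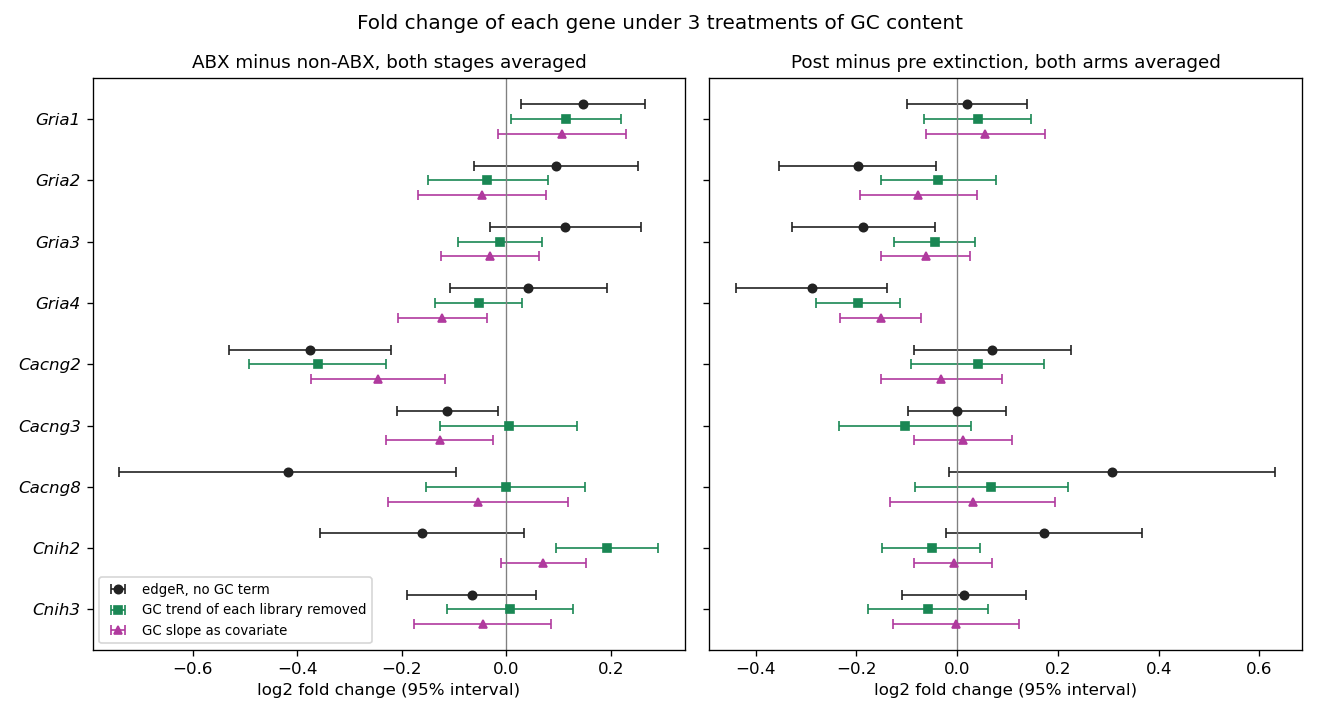
Log2 fold change (horizontal axes, with 95% intervals) of each gene for ABX against non-ABX (left) and post against pre extinction (right), from the fit with no GC term (circles), with the GC trend of each library removed (squares) and with the GC slope of the library as a covariate (triangles). The Cacng2 intervals on the left and the Gria4 intervals on the right lie below 0 in all 3 fits, while Cacng8 moves from -0.42 to near 0 and Cnih2 changes sign on the left.

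The second comparison asks how the members differ after extinction from before it. Here Gria4, a subunit with fast kinetics that is prominent in parvalbumin interneurons, had the largest difference among the subunits. It was at 185, 149 and 173 CPM in pre non-ABX and 132, 132, 148 and 150 CPM in post non-ABX libraries. With ABX it was at 196, 164, 195 and 153 CPM before and 156, 152, 133 and 127 CPM after extinction. The highest post libraries (150 and 156 CPM) were just above the lowest pre library of the same arm (149 and 153 CPM), so the stages overlapped in both arms. The averaged log2 fold change of Gria4 was -0.29 (SE 0.07, 95% interval -0.44 to -0.14), which missed the threshold in edgeR's test (adjusted p 0.0634).

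With the GC trend removed, all 8 post libraries (133 to 154 CPM) were below all 7 pre libraries (155 to 181 CPM) for Gria4, a separation found in 0.41% of genes. The log2 fold change was then -0.20 (SE 0.04) and passed the threshold (adjusted p 0.0177, with 1.95% of genes called). DESeq2 (-0.29, adjusted p 0.00778) and limma-voom with quality weights (-0.34, adjusted p 0.00158) also called Gria4. Over all genes, the alternative fits other than leaving out 1 library called 96 to 6358 by stage, against 162 in the fit reported. The share called by each method is not given here. Gria4 was not called with the slope as a covariate (-0.15, adjusted p 0.0726) or with the surrogate variable (adjusted p 0.0504). Leaving out each library, it was called in 2 of 15 fits (without pre ABX 4 or pre non-ABX 3). Its level followed the library's GC slope (r = -0.92, permutation p = 3e-05, adjusted 9e-05; rho = -0.81, permutation p = 0.00041, adjusted 0.0012; n = 15 libraries; r = -0.89 without pre non-ABX 3 and pre ABX 4), and after the GC trend was removed r was still -0.75. The summed level of 7 interneuron markers was 794 to 920 CPM in pre and 787 to 891 CPM in post libraries, with a median log2 fold change of 0.02 and 2 of 7 markers negative.

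Gria2 and Gria3 had negative stage values that followed GC content. Gria2 was at 753 to 1050 CPM in pre and 676 to 882 CPM in post libraries, and Gria3 at 424 to 587 CPM in pre and 395 to 511 CPM in post libraries. The averaged log2 fold change was -0.20 (SE 0.07, adjusted p 0.167) for Gria2 and -0.19 (SE 0.07, adjusted p 0.158) for Gria3. These values became -0.04 (95% interval -0.15 to 0.08) and -0.05 (95% interval -0.13 to 0.03) once the GC trend was removed. Gria1 gave 0.02 (95% interval -0.10 to 0.14).

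TARPs and cornichons had positive or near-zero stage values. Cacng8 gave 0.31 (SE 0.15, adjusted p 0.263) and Cnih2 0.17 (SE 0.09, adjusted p 0.282). Removing the GC trend left 0.07 and -0.05. Cacng2 gave 0.07 (95% interval -0.09 to 0.23), Cacng3 0.00 (95% interval -0.10 to 0.10) and Cnih3 0.01 (95% interval -0.11 to 0.14). edgeR called 0 of 9 members averaged over the arms, against 0.963% of all genes. At an unadjusted p under 0.05, 3 members (Gria2, Gria3 and Gria4) were negative, against 11.8% of genes, and 0 were positive, against 8.62%. The members' median was 0.01 and that of all genes 0.00. limma-voom called 6 members and DESeq2 1. Over all genes, the alternative fits other than leaving out 1 library called from 96 to 6358, against 162 in the fit reported. The 6 members are therefore not a result about this set. A single library moved edgeR's count of members: without pre non-ABX 3, the library with the highest GC slope, edgeR called 5 members, namely Gria2 (-0.23), Gria3 (-0.22) and Gria4 (-0.33) as lower and Cacng8 (0.46) and Cnih2 (0.27) as higher after extinction. Gria2 and Cnih2 passed there at an adjusted p of 0.0499 each. The count over all genes moved as well, between 14 and 2262 when 1 library was left out.

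The stage comparison was also made in each arm, with the values of each arm set side by side. In non-ABX mice edgeR called 0 of 9 members (0% of genes), with Gria4 at -0.26 (SE 0.10), Gria2 at -0.17 (SE 0.11) and Gria3 at -0.17 (SE 0.10) on the log2 scale. With ABX it called 0 of 9 (0.0951% of genes), with Gria4 at -0.32 (SE 0.10, adjusted p 0.166), Gria2 at -0.23 (SE 0.10) and Gria3 at -0.20 (SE 0.09). At an unadjusted p under 0.05, 1 member was negative in non-ABX mice (3.43% of genes) and 3 with ABX (8.97%). limma-voom called 4 members in non-ABX mice and 1 with ABX, and DESeq2 called 0 and 0. Over all genes, the alternative fits other than leaving out 1 library called 0 to 3191 in non-ABX mice and 5 to 465 with ABX. For the interaction of ABX and stage, edgeR called 0 of 9 members (0% of genes), and 0 had an unadjusted p under 0.05 (2.06% of genes). The interaction ranged in size from 0.03 (Cacng2) to 0.18 (Cacng8), and each 95% interval held 0. The widest, for Cacng8, ran from -0.47 to 0.82, so differences of that size between arms were not detectable at this precision.

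**Figure D3:**
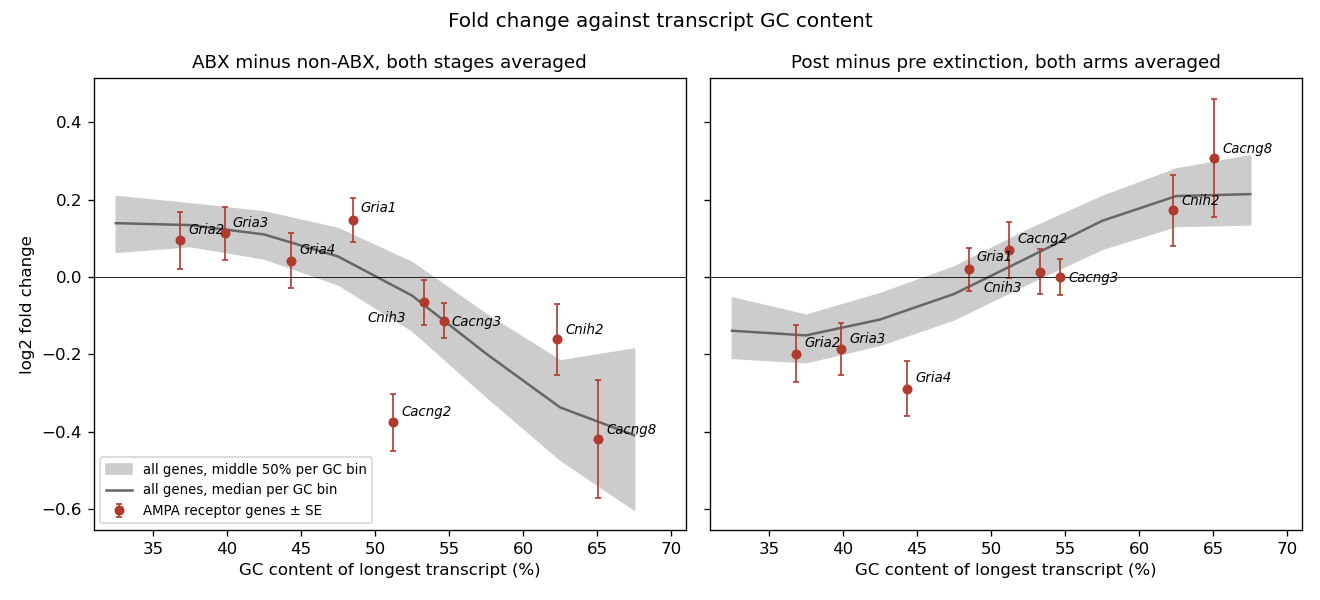
Log2 fold change (vertical axis) of the 9 genes (points, with SE) against the GC content of the longest transcript (horizontal axis), for ABX against non-ABX (left) and post against pre extinction (right); line and band give the median and the middle 50% of all genes in bins of 5 GC points. Most of the 9 genes lie in or near the band, while Cacng2 (left) and Gria4 (right) lie below it.

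Read across all genes, the averaged ABX fold change had a slope of -0.21 log2 units per 10 GC points and the stage fold change one of 0.17, over the 15326 tested genes with a transcript GC value (91.1%). The members span much of this range. Gria2 (36.8% GC), Gria3 (39.8%) and Gria4 (44.3%) lie at the low end, and Cnih2 (62.3%) and Cacng8 (65.1%) at the high end. Gria1 (48.5%), Cacng2 (51.2%), Cnih3 (53.3%) and Cacng3 (54.6%) lie between. Genes of 50 to 55% GC had a median averaged ABX log2 fold change of -0.05, with the middle of the genes between -0.14 and 0.04, and Cacng2 at -0.38 was below that band. Genes of 60 to 65% GC had a median of -0.34 and those of 65 to 70% one of -0.41, beside -0.16 for Cnih2 and -0.42 for Cacng8. For the stage comparison, genes of 40 to 45% GC had a median of -0.11, with the middle between -0.17 and -0.04, and Gria4 at -0.29 was below it.

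From library to library within groups, 6 of 9 members followed the GC slope. The slope was fitted to all genes with a GC value in these same libraries. The share of all genes that followed it is not given here, so the count is not a trait particular to the members. Cnih2 (r = 0.97, rho = 0.94), Cacng8 (r = 0.90, rho = 0.88) and Cacng2 rose with the slope, and Gria4, Gria3 (r = -0.88, rho = -0.81) and Gria2 (r = -0.77, rho = -0.78) fell with it, each with a permutation p adjusted over the 9 members of at most 0.0034 for r and 0.0074 for rho. Without pre non-ABX 3 and pre ABX 4, the libraries farthest out within their groups, r was 0.96 for Cnih2, 0.87 for Cacng8, -0.79 for Gria3 and -0.63 for Gria2. Gria1 (r = -0.33, rho = -0.31), Cacng3 (r = -0.15, rho = -0.11) and Cnih3 (r = 0.17, rho = -0.02) gave adjusted permutation p-values of 0.3 to 0.95, and without those libraries r of -0.01, -0.14 and 0.24. Removing the GC trend did not free every member from the slope. On the corrected values r was -0.82 for Cacng3 and -0.70 for Cnih2, against -0.15 and 0.97 before, and 0.32 for Gria2, 0.11 for Gria3, 0.08 for Cacng8, -0.15 for Gria1 and -0.41 for Cnih3. The corrected fold changes of Cacng3 and Cnih2 are therefore to be read with these correlations in view. In the plot of levels against the slope, no non-ABX library reaches the slopes of pre ABX 1 (-0.41) and pre ABX 3 (-0.32), since the lowest non-ABX slope is -0.14.

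**Figure D4:**
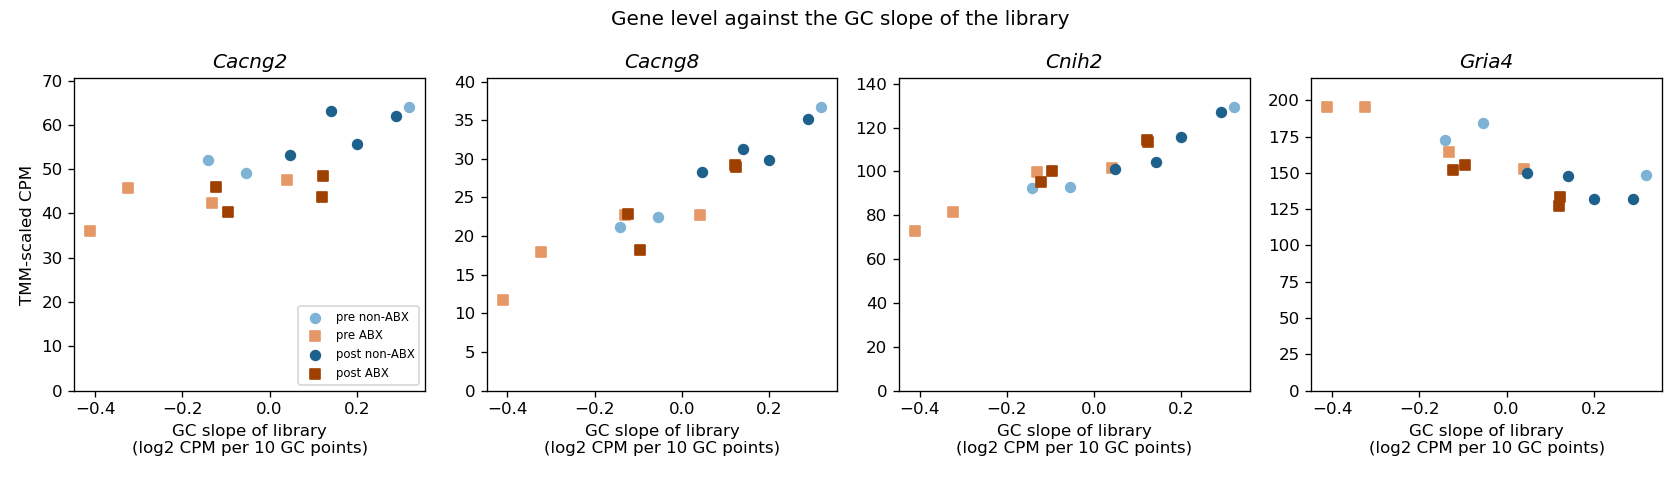
TMM-scaled CPM (vertical axes, from 0) of Cacng2, Cacng8, Cnih2 and Gria4 against the GC slope of each library (horizontal axes, log2 CPM per 10 GC points); circles are non-ABX and squares ABX libraries, in light colours before and dark colours after extinction. Cacng8 and Cnih2 are higher and Gria4 is lower at high slopes. Cacng2 also rises with the slope (r = 0.72 with group means removed), and its ABX squares, at most 48.5 CPM, lie below its circles.

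The make-up of the receptor at the RNA level was described by the share of each subunit in the summed CPM per kb of Gria1 to Gria4, with the longest transcript as length. The size of the shares depends on that length, above all for Gria3. Over all libraries, Gria1 to Gria4 stood at 96.3, 79.0, 91.2 and 28.7 CPM per kb by longest transcript. By joined exons they stood at 88.4, 52.7, 48.2 and 24.8, and shares on that length are not given. Gria1 made up 30.9% ± 1.19 (SD, n = 3) in pre non-ABX, 31% ± 2.48 (n = 4) in pre ABX, 33.5% ± 1.06 (n = 4) in post non-ABX and 35.1% ± 1.87 (n = 4) in post ABX libraries. Gria4 made up 10.5% ± 0.59, 10.1% ± 0.71, 9.53% ± 0.19 and 8.95% ± 0.92 in the same order. Gria2 made up 24.7 to 29.0% and Gria3 29.3 to 32.5% over all 15 libraries. In non-ABX mice the Gria1 share did not overlap between pre (29.6 to 31.9%) and post (32.8 to 35.1%) libraries, and in ABX mice it overlapped (28.4 to 33.5% and 33.3 to 37.6%). With the GC trend removed the non-ABX shares overlapped too (29.5 to 32.7% and 31.8 to 33.1%). Among the 3 TARPs, Cacng3 made up 76.2% ± 3.81 (SD, n = 15), Cacng8 14.2% ± 3.11 and Cacng2 9.68% ± 0.92. The Cacng2 share was 10.1% and 10.6% in the pre and post non-ABX groups and 9.13% and 8.98% in the pre and post ABX groups.

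Members were also compared with one another and with other genes across the 15 libraries with group means removed, as a description, since all libraries share the differences in GC slope named above. Gria2 and Gria3 had r = 0.97 (rho 0.99), Gria3 and Gria4 0.86 (rho 0.70), and Cacng8 and Cnih2 0.90 (rho 0.88). Gria4 and Cnih2 had r = -0.92 (rho -0.81). With the GC trend removed Gria2 and Gria3 still had r = 0.92 (rho 0.86), but Gria3 and Gria4 had 0.03 (rho 0.16). Of 13249 genes, the 3 with the pattern most like Cacng2 were Sik3, a salt-inducible kinase (r = 0.94), Sipa1l2 (0.93) and Tonsl (0.92), and those most like Gria4 were Dcaf13 (0.98), Hnrnpa3 (0.97) and Cspp1 (0.97). Most like Gria1 were Arhgap26 (r = 0.95), Dgkg (0.95) and Srgap2 (0.94), most like Gria2 were Reps2 (0.99), Opa1 (0.98) and Necab1 (0.98), and most like Gria3 were Abi2 (0.99), Atf2 (0.99) and Tnks2 (0.98). Most like Cacng3 were Mlec (r = 0.89), Stau1 (0.89) and Pdia4 (0.89), and most like Cacng8 were Fasn, the fatty acid synthase (0.998), Ube2o (0.99) and Ap2a1 (0.99). Most like Cnih2 were Ccdc97 (r = 0.99), Evl (0.99) and Srf (0.99), and most like Cnih3 were Gap43, a growth cone protein (0.95), Crym (0.92) and Pdlim1 (0.92). Transcripts of the genes named for Gria2 had 39.5 to 43.5% GC and those named for Cnih2 58.3 to 64.4%, on the same side of the median gene (49.9%) as the member. Those named for Gria1, Gria3, Gria4, Cacng2 and Cacng8 were also on the member's side. For Cnih3 (53.3% GC) all were on the other side (43.0 to 49.7%). For Cacng3 (54.6%) Stau1 (48.3%) and Pdia4 (47.6%) were on the other side and Mlec (51.9%) was not.

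Other genes of the AMPA receptor pathway were read from lists of auxiliary proteins, trafficking proteins and modifying enzymes, beside the other ionotropic glutamate receptors. For ABX averaged over stages, edgeR called 0 genes in each of these lists. All 3 of the other TARP and gamma genes were negative, with Cacng7 at -0.24 (SE 0.08, adjusted p 0.0769) and Cacng4 at -0.18 (SE 0.10, adjusted p 0.255) on the log2 scale. Of 23 further auxiliary and assembly genes, 14 were negative (median -0.06), and 6 negative and 2 positive genes had an unadjusted p under 0.05. The lowest in p were Olfm2, an olfactomedin found with AMPA receptors, at -0.46 (SE 0.12, adjusted p 0.0634), and Vwc2, the secreted protein brorin, at -0.28 (SE 0.08, adjusted p 0.0704). Of 30 trafficking and anchoring genes tested, 19 were negative (median -0.04), and 9 negative and 0 positive genes had an unadjusted p under 0.05. Lrrtm1, a synaptic adhesion protein, gave -0.40 (SE 0.10, adjusted p 0.0634), and Dlg4, which encodes PSD-95, the scaffold that TARPs bind, gave -0.33 (SE 0.09, adjusted p 0.0679). Of 14 kinases, phosphatases and editing enzymes, 10 were negative (median -0.07), and 5 negative and 0 positive genes had an unadjusted p under 0.05. Adarb1, the enzyme that edits Gria2 RNA, gave -0.23 (SE 0.06, adjusted p 0.06), and Ptpn5, the phosphatase STEP, gave -0.25 (SE 0.08, adjusted p 0.0726). Over all genes 47.5% were negative, with a median of 0.01, and 17.8% were negative and 12.8% positive at an unadjusted p under 0.05.

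The related receptor families were read in the same way. Of 7 NMDA receptor genes, 6 were negative with ABX (median -0.32), with Grin2c at -0.32 (SE 0.09, adjusted p 0.0663) and Grin2d at -0.46 (SE 0.14, adjusted p 0.0702), both of high GC content (62.1% and 65.0%), and 4 negative genes and 0 positive genes had an unadjusted p under 0.05 (17.8% and 12.8% of all genes). The list of 9 kainate and delta receptor genes also holds Neto1 (-0.055) and Neto2 (-0.007), which encode auxiliary proteins. Of these 9 genes, 6 were negative (median -0.05), with Grik5 at -0.36 (SE 0.13, adjusted p 0.0903) and Grik1 at 0.17 (SE 0.07, adjusted p 0.11). For the stage comparison edgeR again called 0 genes in each list, with 49.8% of all genes negative, and 11.8% negative and 8.62% positive at an unadjusted p under 0.05. The 3 other TARP and gamma genes were positive, Cacng4 at 0.27 (SE 0.10) and Cacng7 at 0.12 (SE 0.08). Among auxiliary genes, Gsg1l, a negative modulator of AMPA receptors, gave 0.19 (SE 0.05, adjusted p 0.0758) and Olfm3 -0.28 (SE 0.09, adjusted p 0.121), and 3 negative and 5 positive genes of 23 had an unadjusted p under 0.05. Among trafficking genes, Akap5, an anchor for kinases at the synapse, gave -0.23 (SE 0.06, adjusted p 0.0809) and the motor Myo5a -0.22 (SE 0.07, adjusted p 0.118), and 9 negative genes and 1 positive gene of 30 had an unadjusted p under 0.05. At that level the 3 other TARP and gamma genes gave 0 negative and 1 positive, the 14 enzymes 0 and 1, the 9 kainate and delta genes 2 and 1, and the 7 NMDA receptor genes 2 and 1. Camk2a gave 0.13 (SE 0.06) and the calcineurin subunit Ppp3cb -0.12 (SE 0.06). Grik2 gave -0.23 (SE 0.06, adjusted p 0.0902), Grik4 0.26 (SE 0.09, adjusted p 0.135), Grin2a -0.33 (SE 0.13, adjusted p 0.183) and Grin2c 0.19 (SE 0.09, adjusted p 0.238). None of these reached the threshold.

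The genes lie apart in the genome (GRCm38.p6, RefSeq annotation): Cacng2 at chr15:77991919-78120220, Cacng3 at chr7:122671744-122769393, Cacng8 at chr7:3394042-3416266, Cnih2 at chr19:5092868-5098521 and Cnih3 at chr1:181350459-181460641. The subunit genes are Gria1 at chr11:57011571-57330244, Gria2 at chr3:80681450-80804227, Gria3 at chrX:41400819-41678601 and Gria4 at chr9:4417893-4796234. Apart from the 14 bases of Cnih2, no exon of a member overlaps an exon of another gene in the annotation. The counts are of whole genes and do not tell the flip from the flop isoform, nor the edited from the unedited RNA.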

How the data were processed

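Each of the 15 columns deposited by the authors holds raw, unnormalized counts by Entrez gene identifier. The submitters' processing notes name CASAVA 1.8.2 and STAR 2.3.0, with mm10 as the build; no source used here names the counting program or annotation. Per the labels' protocols the kit was SMARTer Ultra Low Input V4, an unstranded method, and the extraction step is worded for sorted cells although the stated source is dissected mPFC. RefSeq gave symbols for 25275 of 27179 identifiers.

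Groups followed the labels. Genes were kept by edgeR's filterByExpr (minimum count 10), scaled by TMM and fitted over all 15 libraries with 4 group means by edgeR 4.0.16's quasi-likelihood test in R 4.3.3. The threshold was a Benjamini-Hochberg adjusted p of 0.05 over 16816 genes. The biological coefficient of variation was 0.112. To remove the GC trend, log2 CPM of each library was fitted by a natural spline (df 5) of transcript GC, taken from the longest GENCODE transcript, and entered as an offset; genes without a GC value got none. CPM were computed with the scaled library sizes, and log2 values with a prior count of 2. Correlations with the GC slope used permutation tests, two-sided, with 100000 permutations.

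Alternatives were RLE scaling, other filters, a replicate block, GC correction, 1 surrogate variable (sva 3.50.0), only the groups compared, limma 3.58.1 voom with quality weights, DESeq2 1.42.0 and leaving out each library. The fit was tested on simulated counts. The members and lists were chosen with earlier results of these data known. All members are named; in each list the 2 genes with the lowest p in an averaged comparison are named, and for each member the 3 genes with the highest correlation among those with a mean of at least 1 CPM. Nptxr did not pass the filter. The labels do not say whether a shared replicate number pairs samples, so the main fit has no block. Same-numbered libraries of different groups had correlations of their deviations from -0.491 to 0.374 (median 0.018). Other pairs had -0.524 to 0.582 (median 0.028).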

Additional observations from a re-analysis of the deposited data

Results flagged for a closer look

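Cacng3 in pre ABX replicate 1 was at 174 CPM, apart from the other 3 pre ABX libraries, which were at 190, 192 and 193 CPM. The gap was large for a group of 4 by Dixon's test at the 95% level. Chance flags about 1 in 20 groups, and 27 groups of members were tested with 1 found. The same library had the lowest GC slope (-0.41) and the lowest Cacng2 (36.0 CPM), Cacng8 (11.8 CPM) and Cnih2 (72.9 CPM) of all 15.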

How the results depend on the processing

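The count of members called with ABX averaged over stages, 1 in the fit reported, was 2 with the GC trend removed, 2 with the replicate block and GC trend removed, 2 with limma-voom, 0 with 1 surrogate variable, 0 with the GC slope as a covariate, and 0 to 2 leaving out 1 library each. The replicate block alone left it at 1 (Cacng2 -0.38, adjusted p 0.0118). Only 5 of 15 libraries correlated best with one of their own number. That check cannot exclude a pairing by number, because the deviations compared also hold the differences in GC slope. The stage count averaged over arms, 0, was 1 with the GC trend removed, with and without the block, 6 with limma-voom, 1 with DESeq2 and 0 to 5 leaving out 1 library each. The count was 1 for ABX after extinction with the block and GC trend removed, limma-voom or DESeq2, and with limma-voom 4 for stage without ABX and 1 for stage with ABX. Cnih2 with ABX reversed to 0.19 (adjusted p 0.0364) with the GC trend removed and 0.18 (adjusted p 0.016) with the block added. The cause was not tested. Of 1611 alternative values for 63 results, 1507 kept direction and side, 25 became called, 12 lost the call, 65 moved and 2 reversed. Over all genes, 105 were called with ABX averaged over stages (4 to 3057 leaving out 1 library, 4 to 1962 otherwise) and 162 by stage (14 to 2262 and 96 to 6358). The same ranges were 0 to 13 and 3 to 420 for ABX after extinction. For stage they were 0 to 1 and 0 to 3191 without ABX, and 3 to 237 and 5 to 465 with ABX. Depth was not varied; the spread between libraries was far above counting error for the members, and part of it followed GC content (the SE of the Gria4 stage value was 0.07, and 0.04 with the GC trend removed).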
